A study of Mus musculus with 2 samples.

Results

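The receptors of the interleukin-1 (IL-1) family were examined one cell at a time in regulatory T (Treg) cells, CD4 T cells that depend on Foxp3 and hold immune responses in check. The 6 genes were taken by name from the gene columns of the count table, which held 16098 genes, and all 6 were present: Il18r1, Il18rap, Il1rl1, Il1r2, Il1r1 and Il1rap. The control library pooled Foxp3DTR-GFP/y Cd4creERT2 mice (5 animals), and the rescued library pooled Foxp3LSL/y Cd4creERT2 mice (4 animals), in which a stop cassette kept Foxp3 silent until Cre cut it out. Both groups were male C57BL/6 mice that had a tdTomato Cre reporter at the Rosa26 locus, had been given 4-OHT (4-hydroxytamoxifen, which activates CreERT2) at postnatal day 14 and were 7 months of age by the labels. GFP+ Treg cells of spleen and lymph node were sorted and captured with the 10x Chromium 3′ V3 kit. Cre was driven by Cd4 and so was not restricted to Treg cells, the Foxp3 alleles of the groups differed, and the pooled animals cannot be separated. The design asks how Treg cells whose Foxp3 was restored early in life compare with Treg cells of mice with a working Foxp3 gene. Each group had 1 library, so every difference below is between 2 libraries, without replicates and without a test.

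IL-1 family cytokines act through paired chains. A ligand-binding chain recruits an accessory chain, and their joined intracellular domains call in Myd88 and the Irak kinases to activate NF-kappaB. Il18r1 binds IL-18 and pairs with Il18rap. Il1rl1, also named ST2, binds IL-33 and pairs with Il1rap, which serves the IL-1 receptor Il1r1 as well. Il1r2 binds IL-1 but lacks the signalling domain and is known as a decoy. ST2 marks many Treg cells of non-lymphoid tissue, where IL-33 can expand them, and a soluble form of ST2 is made from the same gene and cannot be told from the membrane form in counts per gene.

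The libraries held 3634 control and 3390 rescued cells with medians of 3739.5 and 3846.5 unique molecular identifiers (UMIs, each standing for 1 captured RNA molecule), and 3 cell barcodes occurred in both. Treg markers were present: at least 2 of the 7 listed (Foxp3, Il2ra, Ctla4, Ikzf2, Tnfrsf18, Cd4, Cd3e) had a UMI in 3515 control and 3375 rescued cells. Foxp3 itself had a UMI in 26.3% of control and 71.7% of rescued cells, from different alleles. Of 5 neutrophil markers 2 were in the table, with 1 UMI in all control and 3 UMIs in all rescued cells, and 3 of 6 mast cell and basophil markers had 11 and 7 UMIs. In Il1r2 cells the latter had 2 and 4 UMIs, 2.35 CPM against 0.62 in the other control cells and 2.28 against 0.22 in the other rescued cells. Monocyte and macrophage markers summed to 169 and 202 CPM (counts scaled to a common library total of 1000000), of which Cst3 gave nearly all UMIs (2566 of 2605 and 3091 of 3142), and Lyz2 had 6 and 16. NK and CD8 T cell markers summed to 64.9 and 43.5 CPM, mostly Nkg7 and Cd8b1. Markers of B cells summed to 2.46 and 2.45 CPM, and those of type 2 innate lymphoid cells, which are known for Il1rl1, to 1.42 and 3.54 CPM. Of these 3 measured markers, Il17rb had 15 and 55 UMIs, Kit 5 and 0, and Il13 2 and 0. In Il1rl1 cells they had 7 UMIs in each library, 9.70 CPM against 1.02 in the other control cells and 5.74 against 3.35 in the other rescued cells, and no cell had 2 of them. The part of such cells in the results was not tested.

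Of the 6 genes 5 lie in 1 locus on chromosome 1 of GRCm38, within 478 kb and all on the plus strand, in the order Il1r2 (40074079 to 40125231), Il1r1 (40225080 to 40317257), Il1rl1 (40429570 to 40465415), Il18r1 (40465552 to 40500854) and Il18rap (40515362 to 40551705). The IL-36 receptor gene Il1rl2 lies between Il1r1 and Il1rl1, and Il18r1 begins 136 bp after the end of Il1rl1. Il1rap stands apart on chromosome 16 (26581704 to 26730117, plus strand). The promoters below are shown because Il1rl1 and Il1r2, though encoded in 1 locus, were highest in different cell clusters, as described further on, with Il1rap beside them as the receptor encoded elsewhere. They are RefSeq windows on GRCm38.p6, running from 250 bases before to 50 bases after an annotated start, on the plus strand. Capitals mark a GATA match, meaning AGATAA or, in its place, AGATAG or else TGATAA or else TGATAG, on either strand. All 6 genes had entries. The Il1r2 window does not cover the gene start given above (40074079). It lies inside the gene, at 40085843 to 40086142.
Il1rl1, upstream start, chr1:40429320-40429619: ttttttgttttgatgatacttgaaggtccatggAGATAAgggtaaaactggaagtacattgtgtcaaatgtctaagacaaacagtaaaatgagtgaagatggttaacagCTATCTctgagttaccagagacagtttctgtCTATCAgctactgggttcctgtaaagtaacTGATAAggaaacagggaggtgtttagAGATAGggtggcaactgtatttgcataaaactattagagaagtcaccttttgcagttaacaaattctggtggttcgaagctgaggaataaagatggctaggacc
Il1rl1, downstream start, chr1:40439379-40439678: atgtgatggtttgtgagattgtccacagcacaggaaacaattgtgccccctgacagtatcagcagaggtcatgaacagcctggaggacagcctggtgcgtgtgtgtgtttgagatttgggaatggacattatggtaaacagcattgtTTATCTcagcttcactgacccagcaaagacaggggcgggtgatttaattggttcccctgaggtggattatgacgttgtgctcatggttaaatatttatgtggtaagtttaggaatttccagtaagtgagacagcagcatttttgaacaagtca
Il1r2, chr1:40085843-40086142: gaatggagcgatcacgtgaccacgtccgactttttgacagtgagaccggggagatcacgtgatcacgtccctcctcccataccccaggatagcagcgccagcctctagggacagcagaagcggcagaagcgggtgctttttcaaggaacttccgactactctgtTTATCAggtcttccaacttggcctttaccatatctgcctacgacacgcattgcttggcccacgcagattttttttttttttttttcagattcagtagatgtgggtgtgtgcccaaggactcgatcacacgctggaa
Il1rap, chr16:26581455-26581754: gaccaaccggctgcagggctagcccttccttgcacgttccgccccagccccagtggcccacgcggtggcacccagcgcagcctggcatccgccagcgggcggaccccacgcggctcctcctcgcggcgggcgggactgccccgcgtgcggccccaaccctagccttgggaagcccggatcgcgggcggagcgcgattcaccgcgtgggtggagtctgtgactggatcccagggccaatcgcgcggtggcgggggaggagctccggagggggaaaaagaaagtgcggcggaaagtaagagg

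The upstream Il1rl1 window held 5 GATA matches, beginning 217, 141, 110, 80 and 54 bases before the start. Among 32851 windows of the same length, 29.8% held at least 1 match and 18 windows (0.0548%) held 5 or more. The downstream Il1rl1 start, the Il1r2 window and the Il18rap window each held 1, and the Il1r1, Il18r1 and Il1rap windows held none. Because the Il1r2 window lies inside its gene, its count and that of the upstream Il1rl1 window come from unlike positions. No window of the 6 genes contained the AP-1 motif TGANTCA on either strand, which occurred in 7.81% of all windows. The Il1rap promoter was the most GC-rich of the windows, at 72% with 33 CpG dinucleotides, against a median of 52.7% and 7 CpG over all windows. The upstream Il1rl1 window had 38.7% and 1 CpG. Its GC share was below the lower quartile of all windows (45.7%), and the shares of windows with GATA matches were not matched for GC. A match is a string of letters and shows no binding, and 3′ counts do not tell which start a transcript came from.

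Il18r1, the IL-18-binding chain, was the receptor found in most cells. It had 938 UMIs in the control and 960 in the rescued library, 60.7 CPM (95% Poisson interval 56.9 to 64.7) and 61.8 CPM (57.9 to 65.8). A UMI was present in 530 control cells (14.6%, exact binomial interval 13.5 to 15.8) and 595 rescued cells (17.6%, 16.3 to 18.9). All intervals here and below cover counting error only. The rescued share was 1.20 times the control share (1.08 to 1.34). Thinned to 2000 UMIs per cell, the shares were 8.88% (7.97 to 9.86) and 10.0% (9.04 to 11.1), and the intervals overlapped. The log2 CPM ratio of the summed levels was 0.025 (-0.11 to 0.16). Cells with Il18r1 carried 1.77 UMIs of it on average in the control and 1.61 in the rescued library.

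Il18rap, the chain that completes the IL-18 receptor, was rarer. It had 110 UMIs in the control and 164 in the rescued library, in 100 cells (2.75%, 2.24 to 3.34) and 144 cells (4.25%, 3.59 to 4.98). The log2 CPM ratio was 0.57 (0.21 to 0.93), below the 1.5-fold line used here. Nearly every cell with Il18rap had a lone UMI, 91 of 100 and 127 of 144 cells. Its lowest shares were in control cluster 5 (1 of 412 cells, 0.243%) and, apart from the 29 rescued cells of cluster 12, which had none, in rescued cluster 6 (3 of 316 cells, 0.949%), and free RNA can add lone UMIs (the clusters are described further on). Thinned to 2000 UMIs, the shares over all cells were 1.20% (0.87 to 1.62) and 1.70% (1.29 to 2.19), with overlapping intervals.

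Il1rl1, the IL-33-binding chain, had 214 UMIs in the control and 296 in the rescued library. The transcript was seen in 127 control cells (3.49%, 2.92 to 4.14) and 188 rescued cells (5.55%, 4.80 to 6.37). The log2 CPM ratio was 0.46 (0.20 to 0.72). It became 0.20 with each cell thinned to 2000 UMIs, at which 1.93% of control and 2.35% of rescued cells had a UMI and the binomial intervals overlapped (1.51 to 2.44 and 1.87 to 2.92).

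Il1r2, the decoy receptor, differed most between the libraries. It had 361 UMIs (23.4 CPM, 21.0 to 25.9) in the control and 705 UMIs (45.4 CPM, 42.1 to 48.9) in the rescued library, a log2 ratio of 0.96 (0.77 to 1.14). The share of cells with a UMI was 3.08% (112 cells, 2.54 to 3.70) against 7.73% (262 cells, 6.85 to 8.68). Thinned to 2000 UMIs, the shares were 1.91% and 4.29%, and the intervals stayed apart (1.48 to 2.41 and 3.63 to 5.03). It was the only 1 of the 5 receptors with at least 20 UMIs that passed 1.5-fold, and it was higher in rescued cells. Of all 11698 genes with at least 20 UMIs, 8.12% were at least 1.5-fold higher and 5.21% at least 1.5-fold lower in rescued cells.

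Il1r2 transcripts were also the most unevenly spread. Cells with the gene carried 3.22 UMIs on average in the control and 2.69 in the rescued library, and the highest cell had 17 in each. In the control library 1% of the cells held 71.2% of all Il1r2 UMIs, and in the rescued library 41.4%. The variance of UMIs per cell was 6.97 and 5.38 times the mean, against 2.39 and 2.02 for Il18r1. Cells with 5 or more Il1r2 UMIs numbered 22 in the control and 45 in the rescued library.

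Il1r1, the signalling IL-1 receptor, was near the limit of detection. It had 2 UMIs in each library, each in a cell of its own, 0.0550% (0.0067 to 0.20) and 0.0590% (0.0071 to 0.21) of cells, and no fold is given. Of these 4 cells, 1 control cell also had a UMI of Il18r1 and of Il1r2, and 1 rescued cell had 2 UMIs of Il18r1.

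Il1rap, the accessory chain shared by the IL-1 and IL-33 receptors, was found at 128 and 125 UMIs. These lay in 122 control cells (3.36%, 2.80 to 4.00) and 119 rescued cells (3.51%, 2.92 to 4.19), and the log2 CPM ratio was -0.043 (-0.41 to 0.32). Its UMIs came almost singly, with a variance of 1.06 times the mean in both libraries and at most 2 UMIs in a cell. The median depth of cells with a UMI of any of the 5 detected receptors was above that of the other cells of the library, from 4119 against 3700.5 UMIs for Il18r1 in control cells to 6163 against 3715 for Il1r2 in control cells. Shares were therefore also read at a fixed depth. Since no cells lacking these receptors were sorted, the lowest clusters given below stand in for a background.

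**Figure D1:**
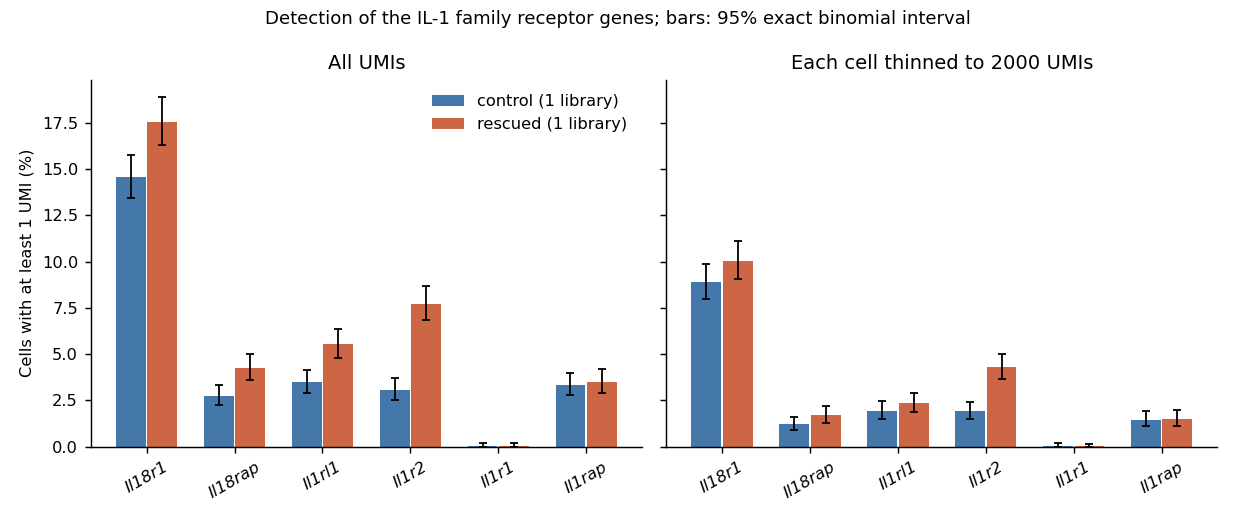
Percent of cells with at least 1 UMI of each receptor gene (y axis) in the control library (3634 cells) and the rescued library (3390 cells), with all UMIs on the left and with every cell thinned to 2000 UMIs on the right. Lines are 95% exact binomial intervals. Il1r2 stands apart between the libraries in both panels, at 3.08% and 7.73% on the left and 1.91% and 4.29% on the right, and Il1r1 is close to 0 throughout.

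**Figure D2:**
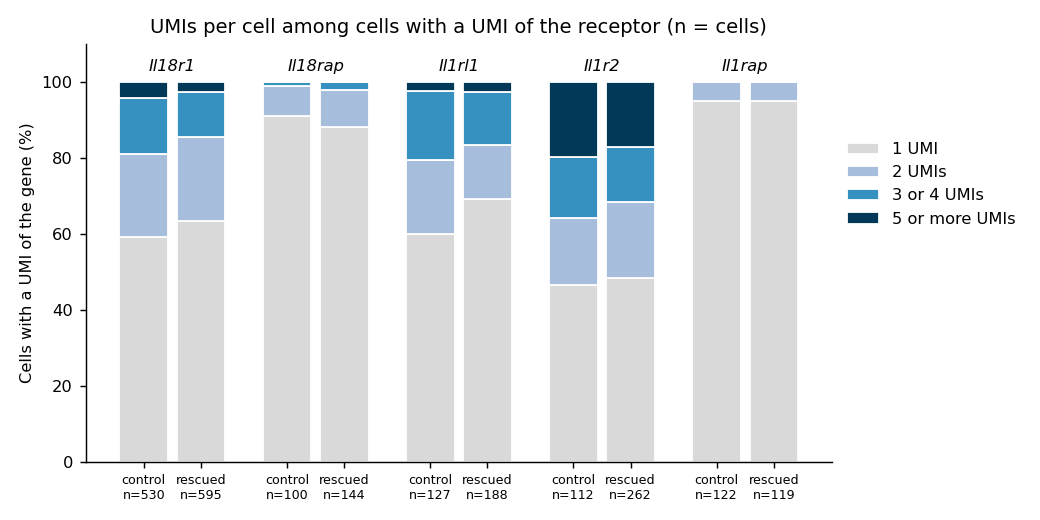
Cells with a UMI of each receptor, split by how many UMIs of it they held (percent of those cells, n below each bar). Il18rap and Il1rap cells nearly all held 1 UMI, whereas 22 of 112 control and 45 of 262 rescued Il1r2 cells held 5 or more.

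Cells were then grouped into 13 clusters without using the 6 receptor genes, so that the receptors could be read across Treg states. Cluster 8 was led by Lgals3, Ube2c, Ccr10, Anxa1 and Ccnb2, of which Ube2c and Ccnb2 are cell cycle genes. Itgb1 and S100a4 were among the leading genes of cluster 7, and cluster 2 was led by Hpgd, Mmp9, Klrg1 and Gzma. Il18r1 was found most in these 3: 58.1% and 42.3% of control and rescued cells in cluster 8, 53.0% and 32.3% in cluster 7, and 42.5% and 24.1% in cluster 2. Cells of cluster 8 were deeper, with medians of 5860 and 6289 UMIs against 3351 and 3253 in cluster 7. By CPM, Il18r1 was not highest in cluster 8 (245 and 126) but in cluster 7 (252 and 149), with overlapping intervals. The lowest Il18r1 share was 3.45% and 3.48% in cluster 6, led by Plac8 and Ccr9. That low value stands in for a background.

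Il1rl1 was concentrated in cluster 8 (22.9% of control and 28.6% of rescued cells) and cluster 2 (20.4% and 9.17%). These clusters held 113 of its 214 control UMIs and 228 of its 296 rescued UMIs. By CPM, Il1rl1 was at 66.9 and 87.3 in cluster 8 and at 83.1 and 25.5 in cluster 2, so the control level was higher in cluster 2. In cluster 7 the share was 9.40% of control and 9.45% of rescued cells, the latter close to that of cluster 2. In cluster 0, the largest of the rescued clusters after cluster 2, the share was 1.08% and 0.617%, and in cluster 11, led by Marcks, Cxcr6 and Il10, no UMI was found in 52 control or 85 rescued cells. A count of 0 there allows a share of cells with a UMI of up to 5.77% and 3.53% (3 counts over the cells), and sets no limit on cells whose transcript was not captured. Il18rap was at 13.3% and 9.14% in cluster 8, 12.0% and 7.13% in cluster 2, 7.38% and 3.98% in cluster 7, and 6.09% and 7.64% in cluster 9, which is described next. Its highest control share was in the small cluster 11, at 15.4%, against 3.53% in the rescued cells there.

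By share of cells, Il1r2 was highest in other clusters. It was seen in 23.5% (control) and 28.0% (rescued) of the cells of cluster 9, led by Ccl1, Ccl4, Bcat1, Shmt1 and Lad1 with Penk among the leading genes, and in 17.5% and 26.6% of cluster 4, led by Krt17, Nrgn, Ier5l and Cebpa. Those 2 clusters held 301 of the 361 control UMIs and 532 of the 705 rescued UMIs. Cells of cluster 9 were deeper, with medians of 5902 and 5997 UMIs against 3679 and 3662.5 in cluster 4. By CPM, Il1r2 was at 174 and 122 in cluster 9 and at 133 and 229 in cluster 4, so the rescued level was higher in cluster 4. In cluster 8, where the shares of Il18r1 and Il1rl1 were highest, Il1r2 was found in 2.86% and 8.00% of cells. In cluster 2 it was found in 7.19% and 7.25%. Because cluster 2 was large in the rescued library, it held 64 rescued cells with Il1r2, against 44 in cluster 9. In cluster 1, led by Tdrp, Ly6c1 and Igfbp4, a single one of 995 control cells had an Il1r2 UMI (0.101%), and in cluster 3 a single one of 557 (0.180%), at median depths of 3720 and 3436 UMIs.

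Il1rap was highest in no cluster of both libraries. Its share ran from 0 of 105 and 0 of 41 control cells in clusters 8 and 12 to 6.55% in cluster 5, and from 0 of 85 rescued cells in cluster 11 to 8.57% in cluster 8. Across the 12 clusters with enough cells in both libraries, the rank correlation between its control and rescued shares was -0.24, against 0.91 for Il18r1, 0.74 for Il1r2, 0.69 for Il18rap and 0.68 for Il1rl1. These are descriptions over 12 points that share the same 2 libraries. By the same measure Il18r1 and Il18rap shares ranked alike (0.83 in control and 0.77 in rescued clusters), and the values were 0.59 and 0.64 for Il18rap with Il1r2 and 0.24 and 0.36 for Il18r1 with Il1r2.

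**Figure D3:**
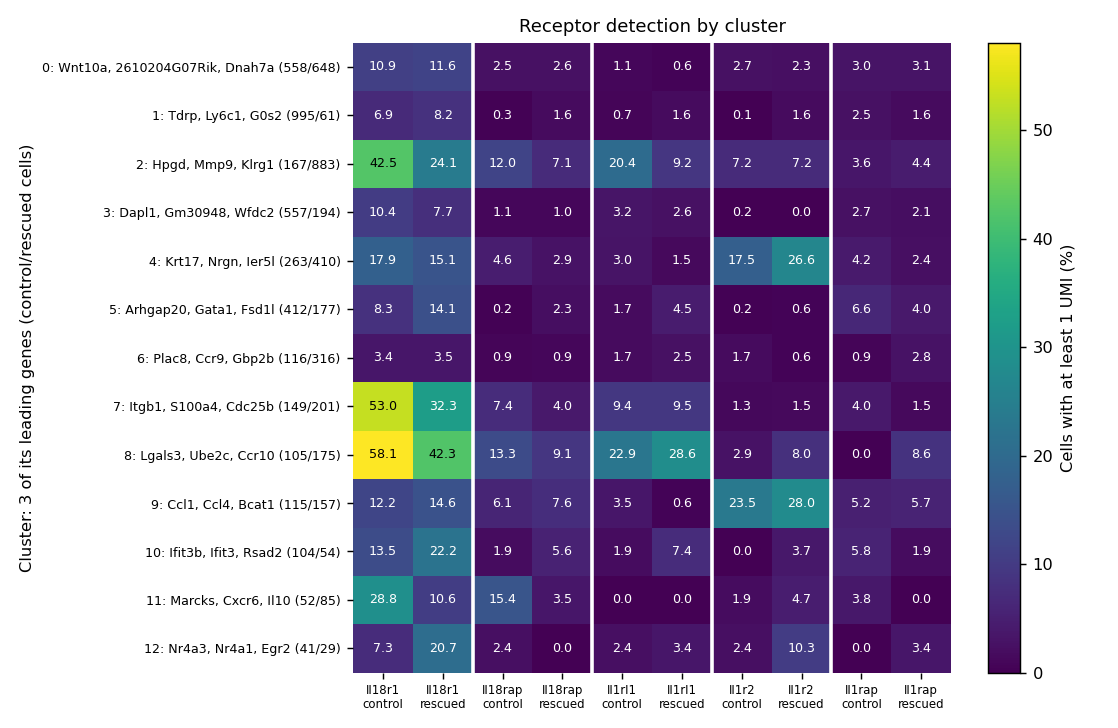
Percent of cells with at least 1 UMI of 5 receptors (colour and number) in each of 13 clusters (rows, named by 3 of their leading genes, with control and rescued cell numbers) and each library (columns). Il18r1 and Il1rl1 are highest in clusters 2, 7 and 8, Il1r2 in clusters 4 and 9, and Il1rap in no cluster of both libraries.

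The libraries held the clusters in different shares. Cluster 2 made up 4.60% of control and 26.0% of rescued cells, and cluster 8 2.89% and 5.16%, whereas cluster 1 made up 27.4% and 1.80%. These shares of cells serve as weights for the ratios within clusters and not as a result on cluster sizes. The genes that set the clusters can differ between the libraries. A cluster drawn mainly from control or mainly from rescued cells may reflect a library and not a cell state. For the levels given next, each cluster was weighted by its share of the UMIs of the rescued library, not of its cells. Had each cluster kept its control level, this makeup alone would have put Il18r1 in the rescued library at 104 CPM. Il1rl1 would have been at 35.1 CPM and Il18rap at 14.9 CPM. The measured levels were 61.8, 19.1 and 10.6 CPM. For Il1r2 the makeup gave 35.2 CPM and the measured level was higher, at 45.4 CPM. For Il1rap it gave 7.34 CPM against 8.04 CPM.

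Within clusters, with both libraries set to the makeup of all cells, the log2 ratio of rescued to control cells was -0.56 for Il18r1 and -0.72 for Il1rl1, each lower in rescued cells although neither was lower over all cells. Il18rap was at -0.30, Il1r2 at 0.46 and Il1rap at -0.028. With the control makeup the values were -0.37 for Il18r1, -0.32 for Il1rl1 and 0.0081 for Il18rap, and with the rescued makeup -0.70, -0.93 and -0.48, so that the size of the Il1rl1 and Il18r1 differences and the sign for Il18rap depended on the weights. Il1r2 stayed at 0.47 and 0.45. How these clusters would differ between further mice was not measured.

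Among clusters with at least 20 UMIs of the gene, the largest difference of Il1rl1 and of Il18r1 was in cluster 2. Il1rl1 there had 69 UMIs in 167 control cells and 117 UMIs in 883 rescued cells, 83.1 and 25.5 CPM, a log2 ratio of -1.70 (-2.15 to -1.25). In cluster 8 the ratio was 0.38 (-0.13 to 0.92), at 66.9 and 87.3 CPM, and in cluster 7 it was 0.018 (-0.92 to 0.97). Of 5 clusters with at least 20 Il1rl1 UMIs, the interval lay below 0 in cluster 2 alone and held 0 in 4. Il18r1 was lower in rescued cells of clusters 2 (160 and 71.7 CPM, -1.16, -1.45 to -0.86), 7 (252 and 149 CPM, -0.76, -1.13 to -0.39), 8 (245 and 126 CPM, -0.96, -1.28 to -0.63) and 4 (82.0 and 58.3 CPM, -0.49, -0.91 to -0.077). In clusters 5 and 10 it was higher, at 23.0 and 38.2 CPM and at 51.5 and 100 CPM. Of 11 clusters with at least 20 Il18r1 UMIs, the interval lay below 0 in 4, above 0 in 2 and held 0 in 5.

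Il1r2 was higher in rescued cells of cluster 4, at 133 and 229 CPM (0.78, 0.51 to 1.06), and lower in those of cluster 9, at 174 and 122 CPM (-0.51, -0.86 to -0.15). Its intervals in the other 4 clusters with at least 20 UMIs held 0. For Il1rap all 6 such clusters held 0, and for Il18rap all 6 as well.

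**Figure D4:**
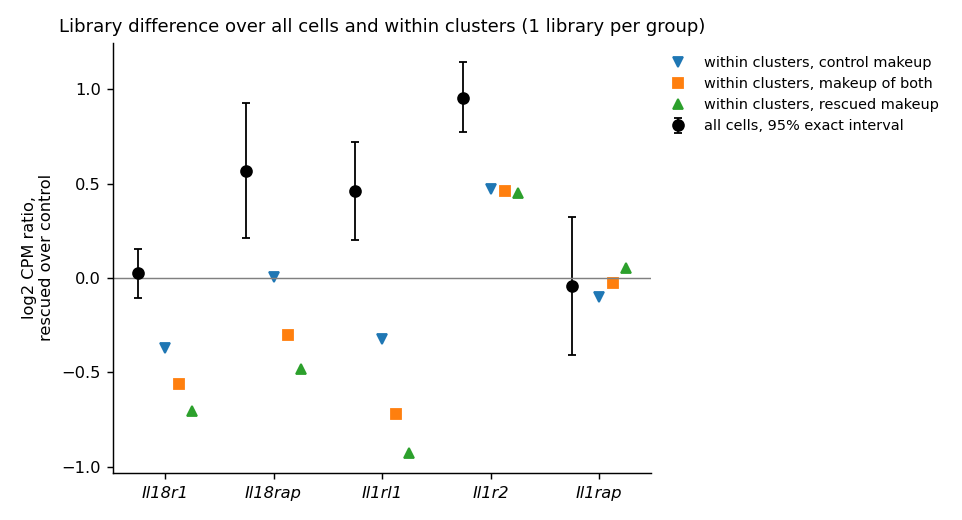
Log2 CPM ratio of rescued over control (y axis) for 5 receptors, over all cells (circle with 95% exact interval) and within clusters at the control makeup, the makeup of both libraries and the rescued makeup (triangles and square, without intervals). Il18r1 and Il1rl1 lie at or above 0 over all cells and below 0 within clusters, whereas Il1r2 stays above 0 in all 4 readings.

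At least 1 of the 6 receptors was detected in 807 control cells (22.2%, 20.9 to 23.6) and 1040 rescued cells (30.7%, 29.1 to 32.3), and at least 2 in 149 (4.10%, 3.48 to 4.80) and 231 (6.81%, 5.99 to 7.72). With 2000 UMIs per cell, at least 1 was seen in 14.3% and 18.0% and at least 2 in 1.04% and 1.88%. The commonest set was Il18r1 alone, in 395 control and 406 rescued cells, then Il1rap alone in 89 control cells and Il1r2 alone in 161 rescued cells. Il18r1 with Il1r2 and no other of the receptors was found in 17 control and 54 rescued cells. All cells with both numbered 33 and 79. That was 1.26 (0.87 to 1.77) and 1.22 times (0.97 to 1.52) the number expected at like depth, as described next. No cell had more than 4 of the receptors, and 3 control and 2 rescued cells had 4.

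Pairs were compared with the number expected if the 2 genes were detected independently in cells of like depth. The IL-18 receptor pair, Il18r1 with Il18rap, was seen together in 57 control cells against 21.4 expected (2.66 times, 2.02 to 3.45) and in 57 rescued cells against 36.9 (1.54 times, 1.17 to 2.0). Of control cells with Il18rap, 57.0% had an Il18r1 UMI, against 13.4% of cells without Il18rap, and in the rescued library the shares were 39.6% and 16.6%. Within clusters as well, the pair occurred together more often than expected, at 1.68 (1.27 to 2.18) and 1.48 times (1.12 to 1.92).

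The IL-33 receptor pair, Il1rl1 with Il1rap, was seen in 11 control cells against 5.43 expected (2.03 times, 1.01 to 3.63) and in 13 rescued cells against 9.54 (1.36 times, 0.73 to 2.33). Within clusters the values were 2.24 (1.12 to 4.01) and 1.25 (0.67 to 2.14). With 2000 UMIs per cell, Il1rl1 was seen in 69 and 79 cells and Il1rap in 52 and 51, too few to read the 0 cells with both. Il1r2 with Il1rap, a pair in which the decoy would hold the accessory chain, was seen in 6 and 14 cells, 0.98 (0.36 to 2.13) and 0.96 times (0.52 to 1.61) the expected number.

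Il18r1 and Il1rl1 shared 53 control and 59 rescued cells, 2.12 (1.59 to 2.77) and 1.30 times (0.99 to 1.68) the expected number, and within clusters 1.18 (0.88 to 1.54) and 1.08 times (0.82 to 1.39). Most of the excess in the control library was thus absent once cells were compared within clusters. Il18rap and Il1rl1 behaved alike, at 2.70 (1.54 to 4.38) and 1.22 (0.70 to 1.98), and 1.57 (0.90 to 2.54) and 1.20 (0.69 to 1.95) within clusters. Of the 10 pairs, the intervals of all 4 with Il1r2 held 1 in both libraries when compared at like depth. Within clusters, Il18r1 with Il1r2 was at 1.29 (1.02 to 1.61) in rescued cells. Il1rl1 with Il1r2 was seen in 9 and 19 cells, 1.22 (0.56 to 2.31) and 0.82 times (0.49 to 1.28) the expected number.

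**Figure D5:**
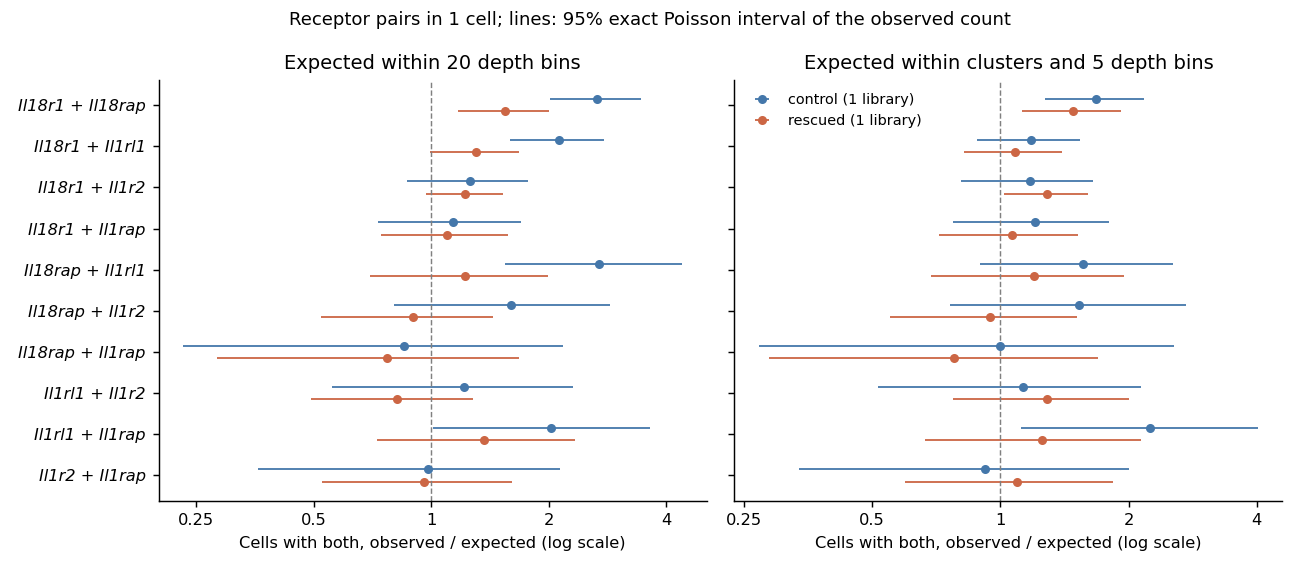
Cells with a UMI of both receptors of a pair, as observed over expected (x axis, log scale, dashed line at 1), with the expected number taken within 20 depth bins (left) or within clusters and 5 depth bins (right). Lines are 95% exact Poisson intervals of the observed number, and each library is 1 colour. Il18r1 with Il18rap lies to the right of 1 in both libraries and both panels, and the pairs with Il1r2 lie around 1 on the left.

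The genes that went with each receptor were read as the log2 CPM ratio of cells with against cells without its UMI, in each library apart. A gene was compared when it had at least 20 UMIs on each side in both libraries, so low genes entered only where they were high in the few cells with the receptor, and it was counted when it passed 1.5-fold in the same direction in both. The number of such genes was 84 higher and 16 lower of 8523 for Il18r1 (0.986% and 0.188%), 36 and 6 of 4861 for Il18rap (0.741% and 0.123%), and 78 and 18 of 5454 for Il1rl1 (1.43% and 0.33%). It was 270 and 108 of 6020 for Il1r2 (4.49% and 1.79%) and 10 and 1 of 4950 for Il1rap (0.202% and 0.0202%). The balance of higher and lower genes is partly set by the UMI minimum, and nothing is read from it, nor from the differing numbers for receptors found in different numbers of cells. The gene lists read below were chosen with earlier results of these data known, so counts from them are descriptions and give no independent support. Cells with a receptor were deeper than the others, and a ratio over all cells also carries differences between clusters, so most genes below have 4 values, control and rescued over all cells, then control and rescued within clusters.

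Cells with Il18r1 carried more of the calcium-binding protein gene S100a4 (3.05 and 1.57, then 1.03 and 0.64), the galectin gene Lgals3 (3.32 and 2.52, then 1.04 and 1.14), the lamin gene Lmna (1.66 and 1.91, then 0.39 and 0.99), Nebl (2.50 and 1.75, then 0.52 and 0.89), the carbonic anhydrase gene Car2 (2.62 and 1.60, then 2.38 and 1.59) and the cyclin gene Ccnb2 (1.82 and 2.05, then -0.61 and 0.78). Ccnb2 had 20 UMIs in control cells with Il18r1, just at the minimum, and its control value within clusters had the opposite sign. Lower in Il18r1 cells were Igfbp4 (-1.35 and -1.42, then -0.19 and -0.37), Gm14085 (-1.06 and -1.51, then -0.68 and -0.66), Tm6sf1 (-1.34 and -0.86, then -1.02 and -1.08) and Gng12 (-0.80 and -0.93, then -0.56 and -0.70). Of the 4 other receptors that could be compared, 3 were higher in both libraries (against 0.986% of all genes compared). Among them was Il18rap (2.68 and 1.27, then 1.33 and 0.88). In the pair counts at like depth given above, over all cells and within clusters, Il18rap alone paired with Il18r1 above 1 by its intervals in both libraries. Of the listed genes other than the receptors, Rora, a nuclear receptor gene (1.88 and 0.77, then 0.67 and 0.35), and the chemokine receptor gene Ccr6 (1.64 and 0.86, then 1.13 and 0.98) passed the line as higher. So did the IL-9 receptor gene Il9r (1.91 and 1.04, then 0.05 and 0.46) and the cytotoxic granule gene Nkg7 (0.86 and 0.64, then 0.24 and 0.27). Those lower were Igfbp4 and Actn1 (-0.69 and -0.60, then -0.28 and -0.19).

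Cells with Il18rap carried more of the chemokine receptor gene Ccr2 (2.47 and 1.33, then 0.65 and 0.71), the inhibitory receptor gene Klrg1 (3.31 and 1.03, then 1.47 and 0.46), S100a4 (2.40 and 1.16, then 0.73 and 0.56) and the galectin gene Lgals1 (1.86 and 1.01, then 0.79 and 0.53). Il1rl1 (1.85 and 1.14, then 0.55 and 0.52) and Il18r1 (1.94 and 0.98, then 0.86 and 0.78) were also among the 6 genes that led by the ranking. Of 7 tissue Treg genes compared, Klrg1 and Rora (2.10 and 0.80, then 1.02 and 0.46) were higher in both libraries. Lower were the lymph node homing receptor gene Ccr7 (-1.77 and -0.68, then -0.82 and -0.18), the survival gene Bcl2 (-1.23 and -0.61, then -0.27 and -0.14), Ugcg (-0.67 and -0.92, then -0.25 and -0.74) and Tbxa2r (-0.98 and -0.81, then -0.55 and -0.53).

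Klrg1, a marker of tissue Treg cells, stood high in cells with Il1rl1. It was at 4.10 (3.80 to 4.39) in control and 2.75 (2.53 to 2.96) in rescued cells, and a Klrg1 UMI was present in 35.4% and 38.3% of Il1rl1 cells against 2.2% and 6.7% of the other cells. It was at 1.76 and 1.93 within clusters. Also higher were the annexin gene Anxa1 (4.71 and 3.89, then 2.45 and 1.59), Lmna (2.71 and 2.71, then 1.53 and 1.26), Nebl (2.70 and 2.65, then 1.00 and 1.33), Lgals3 (2.56 and 3.54, then 0.36 and 1.25) and Ccr2 (2.39 and 2.77, then 1.08 and 1.31). The tissue Treg list was chosen with earlier results of these data known, so its count is a description and no support. Of 16 tissue Treg genes 10 could be compared, and 5 were higher in both libraries (against 1.43% of all genes compared). They were Klrg1, the repair factor gene Areg (2.48 and 2.37, then 1.69 and 3.43), the transcription factor gene Gata3 (1.11 and 0.80, then 0.57 and 0.67), Rora (1.80 and 1.05, then 0.61 and 0.44) and the granzyme gene Gzmb (2.09 and 1.64, then 0.42 and 0.52). The T cell factor gene Tcf7 (-1.05 and -1.47, then -0.73 and -1.24) was lower, as were Tbc1d4 (-1.04 and -1.61, then -0.93 and -0.88), Tnfsf8 (-1.35 and -1.03, then -0.66 and -0.37) and Ccr7 (-0.97 and -0.95, then -0.16 and -0.41). The chemokine receptor gene Cxcr6 (2.50 and 2.13, then 1.29 and 1.72) was higher. The 23 control and 130 rescued Areg UMIs lay in only 7.9% and 6.9% of the Il1rl1 cells.

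In cells with Il1r2 the BMP and Wnt antagonist gene Sostdc1 led, at 6.51 (5.93 to 7.14) in control and 3.89 (3.44 to 4.36) in rescued cells, and at 3.87 and 1.87 within clusters. Its 154 and 119 UMIs lay in 11.6% and 7.6% of the Il1r2 cells, whereas 33.0% and 25.2% of them had the amino acid transporter gene Slc7a10 (3.73 and 2.94, then 1.91 and 1.75). The transcription factor genes Cebpa (3.82 and 2.63, then 1.67 and 1.44) and Bhlhe40 (3.23 and 2.44, then 1.68 and 1.62) were higher, as were Marcksl1 (2.65 and 2.45, then 0.74 and 1.59) and the chemokine gene Ccl4 (5.38 and 2.93, then 3.03 and 2.92), although the 75 and 33 Ccl4 UMIs lay in only 1.8% and 1.1% of the Il1r2 cells. Lower were the interferon-gamma receptor gene Ifngr1 (-1.46 and -1.21, then -0.65 and -0.88), Ms4a4b (-1.27 and -1.08, then -0.24 and -0.27), Gm4955 (-1.08 and -1.10, then -0.14 and -0.84) and Bcl2 (-1.33 and -1.05, then -0.24 and -0.20).

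Genes of recent T cell receptor stimulation were read as well. This list was chosen with earlier results of these data known, and the same UMI minimum applied, so its count is a description only. Of 13 such genes 10 could be compared and 7 were higher in both libraries in Il1r2 cells, against 4.49% of all genes compared: Penk (3.62 and 2.40, then 1.36 and 1.30), Cd83 (2.13 and 1.63, then 0.42 and 0.80), Tnfrsf4 (1.80 and 1.52, then 0.33 and 0.72), Egr2 (1.76 and 1.51, then 0.48 and 0.51), Irf4 (1.75 and 1.51, then 0.02 and 0.95), Tnfrsf9 (1.75 and 1.81, then -0.08 and 0.72) and Nr4a1 (1.33 and 1.83, then 0.06 and 0.89). For each of the other 4 receptors the number was 0. Of 12 NF-kappaB feedback genes, which NF-kappaB switches on to restrain itself, 5 were higher in Il1r2 cells, Nfkb2 (1.48 and 1.23, then 0.67 and 0.89), Tnfaip3 (1.09 and 0.84, then 0.16 and 0.56), Nfkbia (1.08 and 0.98, then 0.37 and 0.62), Relb (1.03 and 0.86, then 0.32 and 0.42) and Nfkbie (0.91 and 0.74, then 0.42 and 0.59), and 0 with any other receptor. The values of the genes named here were smaller within clusters, and the control value of Tnfrsf9 there had the opposite sign.

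Of the tissue Treg genes 6 of 10 were higher in Il1r2 cells (4.49% of all genes compared), among them Areg (2.15 and 3.07, then 0.06 and 1.87) and the AP-1 family gene Batf (2.21 and 1.71, then 0.92 and 0.95), and Gata3 (0.15 and 0.53, then -0.26 and 0.35) did not pass. Of resting genes 5 of 8 were lower (1.79% of all genes compared), among them Actn1 (-1.23 and -1.01, then -0.06 and -0.36) and Klf2 (-2.37 and -1.01, then -0.32 and -0.05). Il4ra (-1.11 and -0.73, then -0.52 and -0.29) was lower, and Ccr6 (2.01 and 1.16, then 1.61 and 1.09) and Nkg7 (1.78 and 0.92, then -0.03 and -0.06) were higher. Lists overlap: Irf4 and Tnfrsf9 stand among both the tissue Treg and the stimulation genes. These lists too were chosen with earlier results of these data known.

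For Il1rap the genes that led were Plac8 (1.38 and 1.68, then 1.64 and 2.20), the replication genes Mcm3 (1.01 and 0.68, then 0.70 and 0.47) and Lig1 (1.10 and 0.63, then 0.85 and 0.66), Dhx58 (0.88 and 0.70, then 0.87 and 0.69), Slc35d1 (0.67 and 0.87, then 0.64 and 0.83) and Exoc2 (0.62 and 0.61, then 0.52 and 0.62), and the lone gene below the line was Pgrmc1 (-0.60 and -0.59, then -0.66 and -0.55). The 29 control and 38 rescued Plac8 UMIs lay in only 4.1% and 3.4% of the Il1rap cells. None of the tissue Treg, stimulation, NF-kappaB feedback or resting genes that could be compared passed the line in both libraries for Il1rap.

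Elsewhere in the pathway few genes passed 1.5-fold between the libraries. Among IL-1 family ligands and soluble regulators 4 of 16 listed genes were in the table. The cytokine gene Il18 had 29 control and 65 rescued UMIs, a log2 ratio of 1.16 (0.50 to 1.84), the IL-18-binding protein gene Il18bp had 62 and 47 (-0.41, -0.99 to 0.16), the IL-1 antagonist gene Il1rn 13 and 9, and Il1b 0 and 2. Il1b is thus at or under the counting limit of 3. Sigirr, which dampens signalling by these receptors, was the family receptor gene with most UMIs, 1535 and 1882 in 33.1% and 40.3% of cells, with a log2 ratio of 0.29 (0.19 to 0.38). Il1rl2 had 4 and 9.

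All 21 genes of the shared signalling chain were measured. None was at least 1.5-fold higher (8.12% of all genes tested) and 1 was lower (5.21% of all) in rescued cells, with a median log2 ratio of -0.0014, against 0.025 over all genes tested. The lower gene was Irak3, an inhibitory member of the kinase family, with 105 and 36 UMIs (-1.55, -2.14 to -0.99). Myd88 was at -0.14 (-0.31 to 0.03), Traf6 at -0.01 (-0.26 to 0.23) and Nfkb1 at -0.01 (-0.07 to 0.04). Of the 12 NF-kappaB feedback genes 0 passed the line in either direction and the median was 0.071. Of 24 other cytokine receptor genes tested, 6 were higher and 2 lower (8.12% and 5.21% of all genes), with a median of 0.25. Those higher were Il17rb (15 and 55 UMIs, 1.87), Il12rb1 (0.99), Il9r (0.93), Tgfbr1 (0.80), Il10ra (0.78) and Ifngr1 (0.74), and those lower were Tgfbr3 (-1.16) and Il17ra (-0.66). Of other listed genes, 12 of 16 tissue Treg genes were at least 1.5-fold higher and 10 of 10 resting genes lower in rescued cells (8.12% and 5.21% of all genes). Those lists were chosen with earlier results of these data known, so the counts are descriptions only.

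The receptors were also read against the tdTomato reporter, which marks cells that had Cre activity and their descendants. By the paper's flow cytometry of spleen, most rescued but only a minority of control Treg cells still carried it at the last time point. Classes of tdTomato UMIs therefore need not stand for the same cells in the 2 libraries. The sizes of the control and rescued values cannot be set against each other. Cells with 4 or more tdTomato UMIs (468 control, 809 rescued) were set against cells with none (1347 and 1496), and 1819 and 1085 cells lay between. These are ranges of a count and not cell types: no cells known to lack Cre activity were at hand to give a background, so a tdTomato UMI can come from free RNA and its lack from missed transcripts. In control cells the log2 ratio was 1.63 (0.79 to 2.50) for Il18rap, 1.60 (1.13 to 2.08) for Il1r2, 1.07 (0.80 to 1.34) for Il18r1 and 0.87 (0.30 to 1.44) for Il1rl1. In rescued cells the values were 0.75 (0.19 to 1.32), 0.91 (0.65 to 1.17), 0.37 (0.15 to 0.59) and 0.55 (0.16 to 0.95). Il1rap was at -0.04 and 0.01. The high class was deeper, with medians of 4744 against 3508 UMIs in control and 4570 against 3603 in rescued cells. Within clusters the control values were 0.66, 0.24, 0.15 and -0.41 and the rescued values 0.61, 0.41, -0.0068 and -0.14, so Il18rap alone stayed above 0.6 in both.

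Against Foxp3, cells with a UMI were compared with cells without, in each library apart. In control cells Il1r2 was at 0.77 (0.46 to 1.08), Il18rap at 0.61 (0.02 to 1.18), Il1rl1 at 0.53 (0.11 to 0.94) and Il18r1 at 0.10 (-0.10 to 0.30). In rescued cells Il1rl1 was at 0.63 (0.18 to 1.10), Il18rap at 0.28 (-0.28 to 0.88), Il1r2 at -0.02 (-0.27 to 0.24) and the interval for Il18r1 ran from -0.22 to 0.22. Whether the libraries differ in this respect was not tested, and within clusters all of these values lay between -0.06 and 0.32.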

How the data were processed

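Per the labels, the authors processed reads with Cell Ranger 3.0 against GRCm38 and used Seurat 3.1.5. They deposited whole-number UMI counts per cell and gene without normalization, used here, and a table of log2 values, not used here. The number of further per-sample columns left unused was 0. All 7024 cells were kept, with 15446201 control and 15537656 rescued UMIs. Libraries were read from the prefix of each cell name. The members and gene lists were chosen with earlier results of these data known. Counts were summed over cells, divided by all counts and given as CPM. Intervals are exact at 95% (Poisson for sums, Clopper-Pearson for shares, conditional for ratios, logarithmic for ratios of shares) and cover counting error only. Statistics were tested on simulated data. Clusters came from scanpy 1.11.5 and leidenalg 0.10.2 (2000 variable genes without the members, 40 components, 15 neighbours, resolution 1). Doublets were scored with Scrublet (in scanpy) and kept, and an alternative dropped the highest 3.5% of scores. Named genes were the 6 highest and 4 lowest partners of each receptor, ranked by the library nearer to 0, and listed genes. Thinning to 2000 UMIs left out 65 control and 33 rescued cells. A leading gene of 1 cluster is not reported here.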

Additional observations from a re-analysis of the deposited data

Results flagged for a closer look

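For 2 receptors the difference between the libraries ran in opposite directions in different clusters, with counting intervals on opposite sides of 0. Il18r1 was higher in rescued cells of cluster 5 (log2 CPM ratio 0.73, 0.013 to 1.44, on 44 and 30 UMIs) and cluster 10 (0.96, 0.077 to 1.86, on 22 and 25 UMIs). It was lower in those of cluster 2 (-1.16), cluster 4 (-0.49), cluster 7 (-0.76) and cluster 8 (-0.96). Il1r2 was higher in rescued cells of cluster 4 (0.78) and lower in those of cluster 9 (-0.51). With 1 library per group the difference between clusters was not tested. Cluster 10 was led by the interferon-response genes Ifit3b, Ifit3 and Rsad2.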

How the results depend on the processing

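No paired analysis was possible because only 1 library stands for each group, and no library could be left out. Of the values recomputed for the main comparisons 104 stayed within the counting interval of the value given or, for counts of genes, within 1.5 times it, 57 moved further and 9 changed direction. Of those for single partner genes and other pairs, 225 stayed, 133 moved and 4 changed direction. The cause was not tested. Scaling without mitochondrial genes or centring on the median gene (0.024) moved no receptor's library ratio beyond its interval. Leaving out the highest doublet scores moved 1 main value, the count of genes lower with Il18rap, to 3.

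Within clusters the library log2 ratio was -0.56 for Il18r1, -0.30 for Il18rap, -0.72 for Il1rl1 and 0.46 for Il1r2. At the control makeup, an alternative chosen after seeing the data, it was -0.37, 0.0081, -0.32 and 0.47, and at the rescued makeup -0.70, -0.48, -0.93 and 0.45. At 1000 UMIs per cell it was 1.02 for Il18rap and 0.59 for Il1rap, and at 2000 UMIs 0.20 for Il1rl1 and 1.21 for Il1r2. The ratio of shares was 1.23 for Il1rl1, 1.93 for Il1r2 and 1.44 for Il1rap at 1000 UMIs, 1.22 for Il1rl1 at 2000 UMIs, and 2.02 for Il18rap and 1.22 for Il1rl1 when 2 or more UMIs were asked for.

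Il18r1 with Il18rap in control cells was at 3.91 without depth bins, 1.68 within clusters and 3.63 at 2000 UMIs, and in rescued cells at 2.26 and 2.19 without bins and at 2000 UMIs. Il1rl1 with Il1rap was at 0 in both libraries at 2000 UMIs, on too few cells to read. The share with 2 or more receptors was 1.04% and 1.88% there.

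Genes higher and lower in cells with a receptor numbered 19 and 7 for Il18r1, 5 and 2 for Il18rap, 25 and 5 for Il1rl1, and 58 and 7 for Il1r2 within clusters, with 6 higher for Il1rap. At 2000 UMIs they numbered 27 and 2, 4 and 0, 26 and 3, and 74 and 22, and for Il1rap 2 and 2. Ccnb2 with Il18r1 in control cells was at -0.61 within clusters. At 2000 UMIs, rescued cells had Ccr7 with Il18rap at 0.13, Slc35d1 with Il1rap at -0.14 and Exoc2 with Il1rap at -0.073.

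With a 2-fold line 0 receptors passed and other cytokine receptors counted 1 higher and 1 lower. Among genes with at least 100 UMIs their median was 0.17. For cells with 1 or more tdTomato UMIs the ratio was 0.67 for Il18r1 in control and 0.63 for Il1r2 in rescued cells. Within clusters the tdTomato ratios were 0.15 for Il18r1, 0.66 for Il18rap, -0.41 for Il1rl1 and 0.24 for Il1r2 in control cells, and -0.0068 for Il18r1, -0.14 for Il1rl1 and 0.41 for Il1r2 in rescued cells. The Foxp3 ratios were 0.27 for Il1r2 in control and 0.085 for Il1rl1 in rescued cells. Depth limits most the genes seen as lone UMIs, Il18rap and Il1rap, and Il1r1 could not be compared.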
